A study of Mus musculus with 21 samples.

Results

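Collagen genes were followed through 4 states of mouse pluripotent cells by RNA sequencing. The members are every row of the deposited count table whose symbol has the form Col, a number, a and a number, which gave 44 of 39396 genes. By the type of protein they encode, 11 are fibrillar collagens, 8 are basement membrane collagens and 25 are other types. These others comprise 9 fibril-associated, 4 transmembrane, 6 beaded filament and 3 short chain network collagens, with 3 anchoring and remaining ones. The data are 21 libraries, 3 in each of 7 groups formed by the embryonic stem cell lines A2 and D3 and their state. Ground-state cells of both lines, which come from the inner cell mass, were kept in DMEM with 10% serum, 1000 U/mL of the cytokine LIF and the 2 kinase inhibitors known as 2i. Naive cells were those cells 4 days after 2i was taken away. EPL cells, early primitive ectoderm-like cells, had spent 4 days in serum medium that held 400 uM L-proline and 330 U/mL of LIF and is listed without 2i. EpiSCs, epiblast stem cells, were available for A2 alone. They were recovered after A2 cells had been placed in a pseudopregnant mouse, and were grown in a serum replacement medium with activin A and basic FGF. All media contained beta-mercaptoethanol. The state, the medium and the derivation of the EpiSCs therefore changed together and cannot be told apart, and the same holds for the LIF dose, proline and the absence of 2i in EPL cells against ground cells. The labels do not say whether the 3 libraries of a group came from separate cultures, so the p-values cover only how these libraries scatter, which may be technical.

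Collagens are secreted proteins built of 3 chains wound into a helix, in which glycine stands at every turn of the repeat and proline is frequent at the positions between. Fibrillar collagens such as types I, III, V and XI form the rope-like fibrils of connective tissue. Basement membrane collagens of type IV form the sheet-like network beneath epithelia, and types XV and XVIII are proteoglycans of that layer. In the early mouse embryo the first basement membranes separate the primitive endoderm from the epiblast, and the parietal endoderm is known for very high output of type IV collagen. Fibrillar collagens are known chiefly as products of mesenchymal cells and fibroblasts.

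The repeat can be read from the coding sequence. Below are 15 codons from the longest unbroken run of glycine at every turn in 4 members that the results turn on. Each is 5′ to 3′ in the sense of the gene, from GENCODE M21 transcripts on GRCm38, and the capitals mark the glycine codons. They were chosen to show 1 fibrillar, 2 basement membrane and 1 beaded filament chain.
Col1a1: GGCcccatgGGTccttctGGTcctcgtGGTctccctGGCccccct
Col4a1: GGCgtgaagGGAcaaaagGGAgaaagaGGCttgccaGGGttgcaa
Col18a1: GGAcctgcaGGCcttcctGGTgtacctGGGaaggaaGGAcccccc
Col6a4: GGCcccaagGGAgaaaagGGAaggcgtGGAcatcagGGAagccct
The Col1a1 stretch covers codons 168 to 182 of 1453 and lies in a run of 338 such triplets. In Col4a1 the run is 40 triplets long and starts at codon 43 of 1669, and in Col18a1 it is 30 triplets long and starts at codon 953 of 1774. Col6a4 has 1 run of 45 triplets in 2309 codons, from codon 1541. Over the 15 codons shown, proline takes 6 codons in Col1a1, 5 in Col18a1, 2 in Col6a4 and 1 in Col4a1, beside 5 glycine codons in each.

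Over whole coding sequences, the median collagen gene had 24.2% glycine and 16.2% proline codons, against 6.03% and 5.28% over 21810 coding genes. Glycine ranged from 9.07% to 31.2% and proline from 4.5% to 23.5% among the 44 members. Col9a3, a chain of the fibril-associated type IX, had the highest glycine share, and Col4a5 had the highest proline share. Fibrillar members were alike in having very long runs, with a median longest run of 338 triplets, against 41 in basement membrane members, whose repeat is interrupted, and 45 in beaded filament members. The beaded filament chains of type VI, which consist largely of globular modules, were as a type the poorest in both residues, with medians of 10.8% glycine and 6.38% proline.

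**Figure D1:**
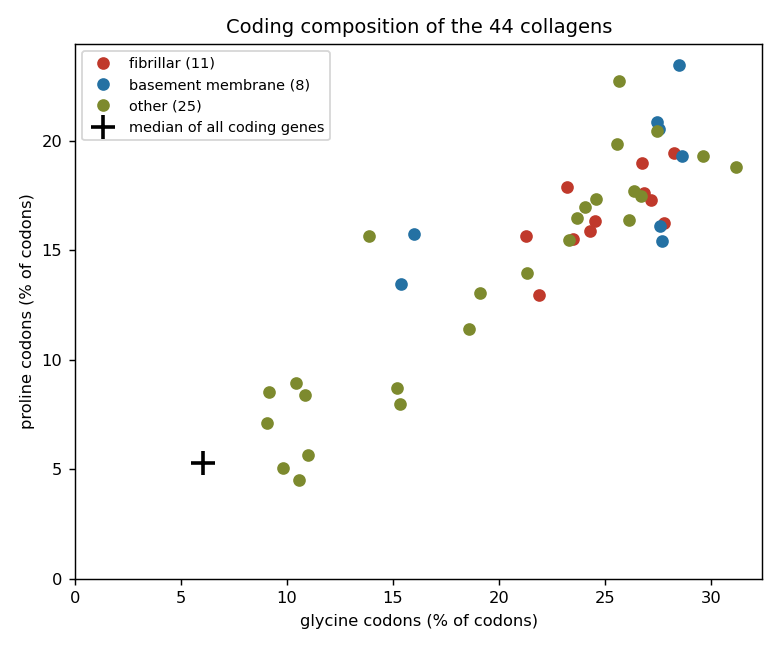
Share of glycine codons (horizontal axis, percent of codons) and of proline codons (vertical axis, percent of codons) in the longest coding sequence of each of the 44 collagen genes, coloured by type, with a cross at the median of 21810 coding genes (6.03% glycine, 5.28% proline). Most members lie far above the cross on both axes (medians 24.2% and 16.2%). The beaded filament chains, drawn among the other types, lie closer to it (medians 10.8% and 6.38%), as do the fibril-associated Col12a1, Col14a1 and Col20a1.

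Levels are given as CPM, read counts scaled to a common library size, here the size after TMM scaling. Library totals ran from 15320599 to 23490527 counts. Collagen reads were 0.0218% to 0.0823% of the counts of each library outside EpiSC and 0.504% to 0.67% in EpiSC. The markers of pluripotent cells were present in every group, with a sum over 8 genes of 2715 to 5228 CPM outside EpiSC and 1477 to 1957 CPM in EpiSC. The single markers did not move as one: in EpiSC the naive-state genes Zfp42 and Esrrb were at 317 and 237 CPM, and Otx2, a gene of the primed state, was at 13.2 CPM, below its 59.1 CPM in A2 EPL. Fgf5, another primed-state gene, was at 12.7 CPM in EpiSC and 4.51 CPM in A2 EPL. In such bulk samples, fewer cells of a type and less RNA per cell cannot be told apart. Of the 44 members, 37 had enough counts to be tested. The 7 others were Col10a1, Col19a1, Col25a1, Col28a1, Col4a3, Col4a4 and Col9a1. Of the 37, 10 met the minimum only through the EpiSC libraries: Col14a1, Col15a1, Col23a1, Col24a1, Col3a1, Col4a5, Col4a6, Col6a1, Col6a3 and Col8a1. Since those 10 had to be high in EpiSC to enter, counts over the 37 do not support a rise there. In all, 26 members reached a mean of 5 CPM in at least 1 group and are described with values, and the highest group mean of each of the other 18 lay between 0.0399 and 4.05 CPM.

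In every group outside EpiSC, collagen RNA was chiefly basement membrane collagen, and in EpiSC it was chiefly fibrillar. The summed level of basement membrane members was 251.3, 262 and 254 CPM in A2 ground, 749, 642 and 689 CPM in A2 naive and 588, 697 and 645 CPM in A2 EPL. In EpiSC the same sum was 1693, 1523 and 1996 CPM. D3 had 183, 173 and 181 CPM in ground, 660.2, 563 and 602 CPM in naive and 600.4, 584 and 493 CPM in EPL. The ground libraries of each line were thus all below its naive and EPL libraries, which overlapped each other.

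The 11 fibrillar members together gave 41.1, 35.0 and 33.4 CPM in A2 ground, 29.1, 26.2 and 31.9 in A2 naive and 27.1, 27.8 and 28.1 in A2 EPL. In EpiSC their sum was 2631, 2459 and 3213 CPM. In D3 it was 52.0, 49.6 and 39.1 CPM in ground, 32.6, 26.1 and 30.1 in naive and 37.0, 29.8 and 27.1 in EPL. Fibrillar collagen was therefore lower in the naive and EPL libraries than in the ground libraries of the same line, while basement membrane collagen was higher. The other 25 members summed to 14.6 ± 1.29 CPM (SD, n = 3) in A2 ground and 14.7 ± 0.654 in D3 ground. Naive cells reached 39.0 ± 3.26 and 29.9 ± 1.43 CPM, with 32.02 ± 2.05 and 26.9 ± 1.57 in EPL, and 532 ± 101 in EpiSC. Of all collagen CPM in EpiSC, 55.0% ± 0.468 (SD, n = 3) was fibrillar, 34.5% basement membrane and 10.5% other. Outside EpiSC the basement membrane share was between 74.4% and 91.5%.

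**Figure D2:**
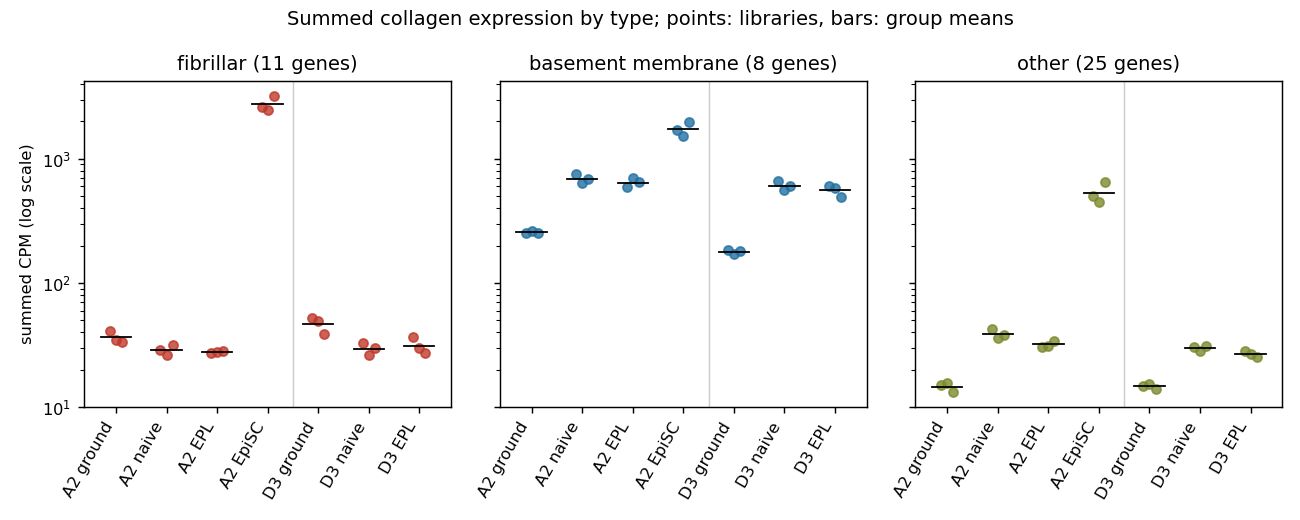
Summed level of fibrillar, basement membrane and other collagens (CPM, logarithmic axis) in the 7 groups, with 1 point per library and a bar at the mean of 3. Basement membrane sums rise from 256 CPM in A2 ground to 693 CPM in A2 naive, whereas fibrillar sums stay at or below 52.0 CPM in every library outside EpiSC and reach 2459 to 3213 CPM in EpiSC.

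**Figure D3:**
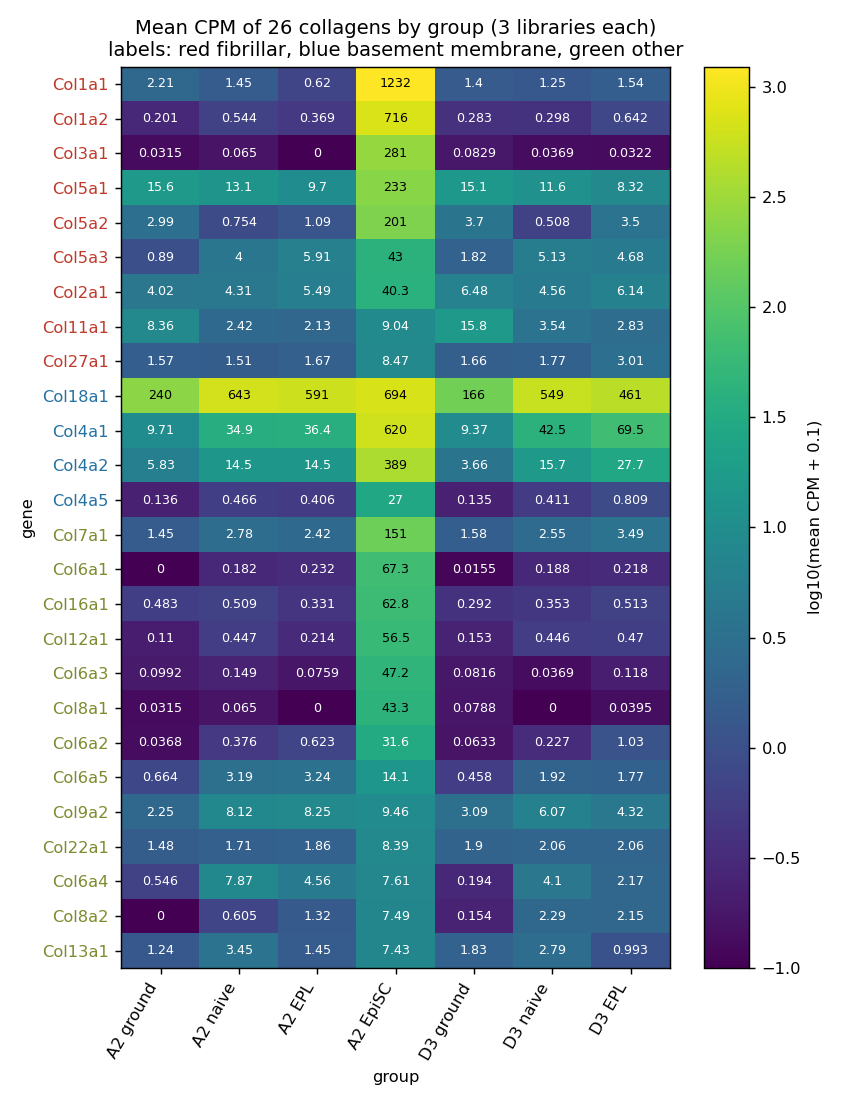
Mean CPM of the 26 collagen genes that reached 5 CPM in at least 1 group (rows, grouped by type) in the 7 groups (columns, means of 3 libraries), printed in each cell and coloured on a log10 scale of CPM plus 0.1. Col18a1 is the one row that is high in every column (166 to 694 CPM), and the EpiSC column is filled throughout, led by Col1a1 at 1232 CPM.

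A single basement membrane gene carried most of the collagen RNA before the EpiSC state. Col18a1 (ENSMUSG00000001435, chr10:77052178-77166548, minus strand) encodes the core of type XVIII collagen, from whose end endostatin is cut. It took 68.9% to 84.5% of collagen CPM in the group means outside EpiSC and 13.8% in EpiSC. Per kb of the longest transcript it stood first among collagens in all 6 of those groups, at 29.6 to 115 CPM per kb, while the next was at most 10.5 CPM per kb, Col4a1 in D3 EPL. In EpiSC the order per kb was Col1a1 at 208 ± 27.5, Col1a2 at 134 ± 18.2, Col18a1 at 124 ± 13.7 and Col4a1 at 93.8 ± 13.3 (SD, n = 3). Divided by the union of all annotated exons instead, Col1a1 stayed first at 188 and Col18a1 came second at 98.9, with Col1a2 lower down at 57.6 CPM per kb.

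The step from ground to naive raised basement membrane collagen and 1 fibrillar chain, and lowered 3 fibrillar chains. In an edgeR quasi-likelihood model of all 16575 tested genes, with p-values adjusted over all of them, 18 of the 37 tested collagens were higher in naive than in ground cells, 3 were lower and 16 were not called. The differences of A2 and D3 were averaged here, and calls were made at an adjusted p below 0.05. Of all tested genes 31.7% were called higher, 31.8% lower and 63.5% either way. The median log2 difference was 0.80 over the tested collagens and 0.01 over all tested genes. By type, 5 of 6 tested basement membrane members rose, with a median log2 difference of 1.67. Of these 6, Col15a1, Col4a5 and Col4a6 met the count minimum only through EpiSC, and Col4a6 had 0 counts in A2 ground and 5 in A2 naive. Of the 11 fibrillar members 1 rose and 3 fell, with a median of -0.09, and 12 of the 20 tested others rose and 0 fell, with a median of 0.91. With the 5 members that had 0 counts in a compared group taken at 3 counts, the medians were 0.718 over all and 1.604 for basement membrane members. Over the 27 members that pass the count minimum without the EpiSC libraries, 15 were higher and 3 lower, with a median of 0.795. Of the 15589 genes that do so, 5018 (32.2%) were higher and 5185 lower.

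Col18a1 was at 236, 244 and 239.7 CPM in A2 ground and at 692, 603 and 634 CPM in A2 naive. In D3 it was at 168, 159.7 and 169 CPM in ground and at 593, 505 and 549.7 CPM in naive. Every naive library was above every ground library, and the log2 difference was 1.58 ± 0.06 (SE; edgeR adjusted p = 6.69e-16). The windows just before its start, and before that of Col3a1, are shown further on. Col4a1 and Col4a2 encode the chains of the most widespread type IV collagen. Col4a1 was at 9.22, 11.3 and 8.58 CPM in A2 ground and 38.4, 27.6 and 38.8 in A2 naive. In D3 it was at 10.9, 9.34 and 7.88 CPM in ground and 48.0, 41.3 and 38.3 in naive. The groups did not overlap in either line, and the log2 difference was 2.01 ± 0.16 for Col4a1 (edgeR adjusted p = 3.5e-10) and 1.71 ± 0.21 for Col4a2 (adjusted p = 2.07e-07). Col4a5, the type IV chain mutated in Alport syndrome, rose by 1.63 ± 0.38 but from 8 counts over the 3 libraries of each ground group.

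Of the fibrillar chains, Col5a2 and Col11a1 fell most clearly. Both belong to the minor fibrillar types V and XI, which sit inside larger fibrils and limit their width. Col5a2 was at 3.17, 2.87 and 2.93 CPM in A2 ground and 0.749, 0.637 and 0.877 in A2 naive. D3 had 4.86, 3.62 and 2.63 CPM in ground and 0.914, 0.277 and 0.332 in naive, so that the groups did not overlap in either line. Its log2 difference was -2.42 ± 0.27 (edgeR adjusted p = 5.02e-08). Col11a1 was at 9.36, 7.68 and 8.04 CPM in A2 ground against 2.88, 2.11 and 2.29 in A2 naive. In D3 it was at 17.0, 17.8 and 12.8 CPM against 4.52, 2.16 and 3.93, again without overlap, and its log2 difference was -1.98 ± 0.14 (adjusted p = 2.24e-11). Col5a1, the partner chain of Col5a2, fell by 0.32 ± 0.10 on the log2 scale (edgeR adjusted p = 0.0107). Col5a3, the third type V chain, did the opposite: A2 ground had 1.13, 0.939 and 0.598 CPM and A2 naive 3.46, 3.48 and 5.07 CPM. Its log2 difference over both lines was 1.82 ± 0.17 (edgeR adjusted p = 3.63e-09). Col1a1 and Col1a2, the chains of type I collagen of bone and skin, were not called, at -0.39 (edgeR adjusted p = 0.0632) and 0.72 (adjusted p = 0.0543), nor was the cartilage collagen Col2a1, at -0.21 (adjusted p = 0.199).

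The 6 beaded filament genes of type VI make a network that links cells to the matrix, and 5 of them rose from ground to naive, with a median log2 difference of 2.61. Col6a4 was at 0.709, 0.387 and 0.543 CPM in A2 ground and at 8.53, 7.98 and 7.11 CPM in A2 naive. It was at 0.203, 0.325 and 0.0547 CPM in D3 ground and at 3.6, 3.77 and 4.93 CPM in D3 naive. The log2 difference of 4.06 ± 0.23 (edgeR adjusted p = 6.46e-13) was well beyond the spread between libraries. Its neighbours on chromosome 9 rose too, Col6a5 by 2.14 ± 0.23 and Col6a6 by 2.79 ± 0.49, the latter from 4 and 3 counts in the ground groups. Col6a2 rose by 2.44 ± 0.58, from 2 counts in A2 ground and 4 in D3 ground. Col9a2 of the fibril-associated type IX rose by 1.41 ± 0.16 (adjusted p = 5.07e-08), the transmembrane collagen Col13a1 by 1.03 ± 0.18 (adjusted p = 4.03e-05) and Col7a1, which forms the anchoring fibrils of skin, by 0.80 ± 0.23 (adjusted p = 0.00524), all by edgeR.

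Markers of several other cell types differed over the same steps. One list was that of primitive and parietal endoderm, cells that make much type IV collagen. The sum of these 11 genes in A2 spanned 5.05 to 7.56 CPM for ground, 18.5 to 21.7 CPM for naive and 14.3 to 34.0 CPM for EPL libraries. D3 libraries spanned 4.81 to 6.60, 15.9 to 19.2 and 37.8 to 55.4 CPM, respectively. Of the 11, 9 rose and 1 fell in each of naive and EPL against ground. Of all tested genes 31.7% were higher and 31.8% lower in naive, and 33.1% and 33.2% in EPL, shares that apply to the lists below too. The mean neural sum over 5 genes was 69.2 CPM in A2 ground, 150.2 CPM in A2 naive, 134 CPM in A2 EPL and 365.5 CPM in EpiSC. D3 ground had 149 CPM, D3 naive 289.6 CPM and D3 EPL 194 CPM. Of the 5, 4 rose and 1 fell in naive against ground, and 2 rose and 3 fell in EpiSC against EPL. For 4 endothelial genes, A2 had a mean sum of 13.4 CPM in ground and 24.1 CPM in naive, and D3 had 6.18 and 11.4 CPM, with 2 of 3 tested higher. Of 5 tested trophoblast genes 3 rose and 2 fell in naive against ground. Among 4 tested mesoderm genes 1 rose and 2 fell. Fibroblast markers, 14 genes, summed to 55.7 to 85.5 CPM in all libraries outside EpiSC, with Dpt at 0 counts in each of those groups. Within that sum, 4 of 13 tested rose and 4 fell in naive against ground, and 5 rose and 4 fell in EPL, near the shares of all genes. Fbln1, its largest term in ground, was at 64.2 CPM in A2 ground and 36.1 CPM in A2 naive, while Thy1 went from 0.674 to 6.92 CPM in A2 and Mmp2 from 2.39 to 15.2 CPM in D3. The part of these marker genes in the collagen differences was not tested.

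EPL cells against ground cells gave 19 collagens higher, 5 lower and 13 not called of 37 tested. Over all tested genes 33.1% were called higher, 33.2% lower and 66.3% either way. The median log2 difference was 0.92 for the collagens and 0.00 for all genes, 2.09 for basement membrane members with 5 of 6 higher, -0.31 for fibrillar members with 3 higher and 4 lower, and 0.96 for the others with 11 higher and 1 lower. With groups at 0 counts taken at 3 counts, the fibrillar median was -0.26 and the median over all tested collagens again 0.92. Over the 27 members that pass the count minimum without EpiSC, 14 were higher and 5 lower, also with a median of 0.92. Of the 15589 genes that do so, 5205 (33.4%) were higher and 5381 lower. This comparison shares its ground libraries with the one of naive against ground, so the values of both are given side by side and not as support for each other. Col18a1 was higher by 1.39 ± 0.06 on the log2 scale in EPL (edgeR adjusted p = 3.83e-15), against 1.58 in naive. Col4a1 was higher by 2.40 ± 0.16 (edgeR adjusted p = 1.17e-11) and Col4a2 by 2.12 ± 0.20 (adjusted p = 4.17e-09), against 2.01 and 1.71. Col11a1 was lower, with log2 differences of -2.22 ± 0.14 (edgeR adjusted p = 3.34e-12) in EPL and -1.98 in naive. Col5a3 was higher by 2.02 ± 0.17 (edgeR adjusted p = 3.48e-10) and Col6a4 by 3.20 ± 0.25 (adjusted p = 1.3e-10). Col1a1 fell by 0.87 ± 0.20 (edgeR adjusted p = 0.000501) and Col5a1 fell by 0.78 ± 0.11 (adjusted p = 1.27e-06). Col12a1, a fibril-associated collagen, was higher by 1.30 ± 0.53 (edgeR adjusted p = 0.0343), a call that was lost in 6 of 12 fits leaving out 1 library, with adjusted p up to 0.102. Those 6 left out A2 EPL replicate 2 or 3, A2 ground replicate 1, D3 EPL replicate 2, or D3 ground replicate 1 or 2.

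Naive and EPL cells differed less from each other in these genes. Of the 37 tested, 7 were higher in EPL, 7 lower and 23 not called, while 27.1% of all tested genes were called higher, 24.1% lower and 51.2% either way. The median log2 difference was 0.12 for collagens and 0.01 for all genes. The lines gave different numbers of calls, but calls made within each line do not test a difference between lines. In A2, 2 collagens were higher and 6 lower, with 32.8% of all genes called, 16.8% higher and 16.1% lower, and 0 of 6 basement membrane members were called. In D3, 10 were higher and 7 lower, with 44.9% of all genes called, 24.4% higher and 20.5% lower, and 4 of 6 basement membrane members were higher and 1 lower. A direct test of this step between lines, added after the data were seen, called 3 of 37 collagens and 0 of 6 basement membrane members. In it Col4a1 had an edgeR adjusted p of 0.162 and Col4a2 of 0.154. Col5a2 was higher in EPL than in naive by 1.66 ± 0.31 (edgeR adjusted p = 0.000139) and Col6a2 by 1.45 ± 0.32 (adjusted p = 0.000717). Lower in EPL were Col13a1, at -1.36 ± 0.19 (edgeR adjusted p = 4.41e-06), Col6a4, at -0.86 ± 0.16 (adjusted p = 0.00013), Col5a1, at -0.46 ± 0.11 (adjusted p = 0.00142) and Col18a1, at -0.19 ± 0.06 (adjusted p = 0.0115). Col4a1 was higher by 0.39 ± 0.15 (edgeR adjusted p = 0.0316). One A2 EPL library was low in these type IV genes: Col4a1 was at 21.7, 50.6 and 37.0 CPM and Col4a2 at 7.55, 22.3 and 13.6 CPM in A2 EPL replicates 1, 2 and 3. The endoderm marker sums of these libraries, 14.3, 34.0 and 25.6 CPM, had the same order. The orders also matched in A2 naive and D3 naive, where the marker sums were 20.4, 18.5 and 21.7 CPM and 19.2, 17.4 and 15.9 CPM. They differed in A2 ground, D3 ground, D3 EPL and EpiSC. Col4a1 at 69.5, 83.8 and 55.2 CPM stood beside marker sums of 37.8, 55.4 and 38.7 CPM in D3 EPL. In EpiSC, 606, 539.8 and 715 CPM stood beside 223, 268 and 324 CPM. A link between Col4a1 and these markers was not tested. Without A2 EPL replicate 1 the log2 difference was 0.52 for Col4a1 (edgeR adjusted p = 0.00131) and 0.57 for Col4a2 (adjusted p = 0.00351). With that library the Col4a2 difference was 0.41 (edgeR adjusted p = 0.057). The Col4a1 call was lost without A2 EPL replicate 2 or 3, A2 naive replicate 2, D3 EPL replicate 2 or D3 naive replicate 3, with adjusted p up to 0.174.

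**Figure D4:**
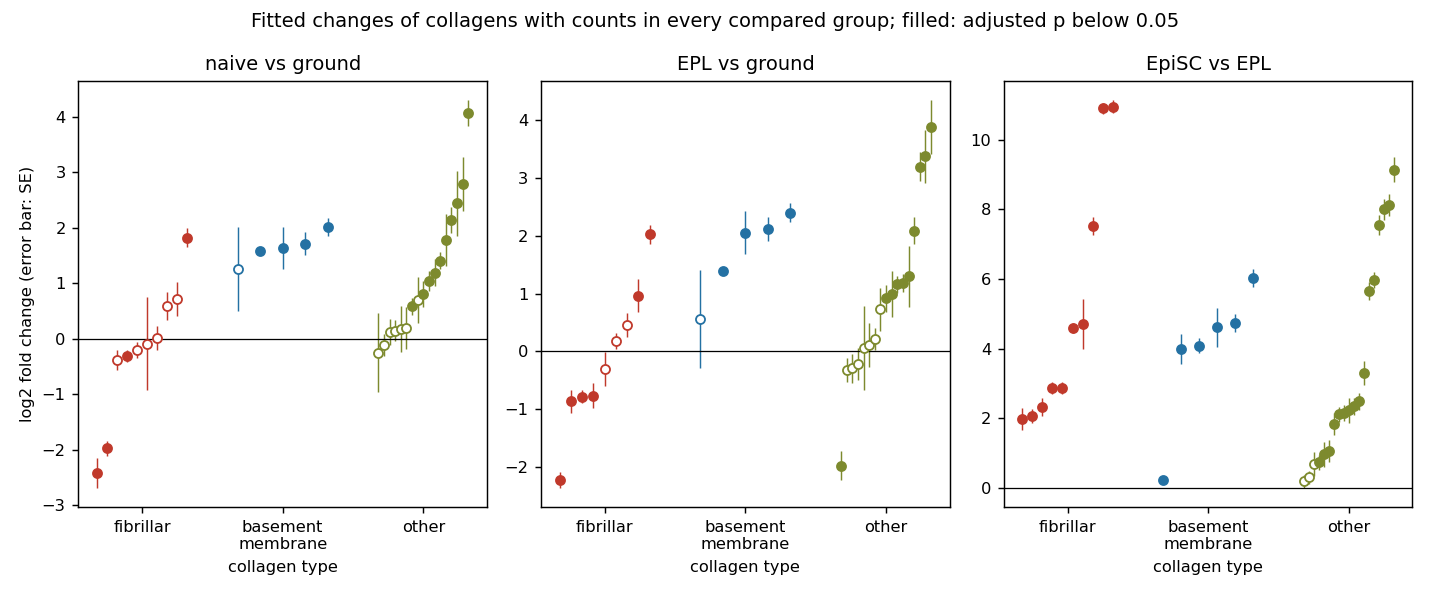
Fitted log2 differences (vertical axis, with SE) of tested collagens in naive against ground, EPL against ground and EpiSC against EPL, by type, filled where called at an adjusted p below 0.05; members with 0 counts in a compared group are not drawn, leaving 32, 31 and 35 of 37. In the first 2 panels basement membrane members sit above 0 and fibrillar members on both sides (medians 1.67 and -0.09 in naive against ground), and in the EpiSC panel every drawn fibrillar member is above 0.

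EpiSCs had higher levels of most tested collagens than the other A2 cells. Against A2 EPL cells, 34 of 37 tested members were higher, 0 lower and 3 not called by edgeR. At an unadjusted p below 0.05 the number was also 34, with 72.7% of all tested genes below it. Of all tested genes 39.1% were called higher, 31.3% lower and 70.4% either way, and the median log2 difference was 3.31 for collagens and 0.07 for all genes. Over the 27 members that pass the count minimum without the EpiSC libraries, 24 were higher and 3 not called, with a median of 2.35. Of the 15589 genes that do so, 36.0% were higher, with a median of 0.007. By type, those 27 were 9 fibrillar members, of which 9 were higher, 3 basement membrane members, of which 3 were higher, and 15 others, of which 12 were higher. Against ground the counts were 34 higher and 3 not called, with 73.2% of all genes called either way, 39.1% higher and 34.1% lower. Against naive they were 31 higher and 6 not called, with 70.3% of all genes called, 39.1% higher and 31.2% lower. Over the 27 members above, 24 were higher and 3 not called against ground, with a median of 3.90. Against naive, 21 of them were higher and 6 not called, with a median of 2.48. Of all genes that pass the minimum in that way, 36.0% were higher against ground and 36.2% against naive. These 3 comparisons share the EpiSC libraries.

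The type I genes went from a few CPM at most to the top of the collagen list. Col1a1 (ENSMUSG00000001506, chr11:94936224-94953042, plus strand) was at 0.354, 0.781 and 0.724 CPM in A2 EPL and at 1177, 1103 and 1415 CPM in EpiSC. Its log2 difference was 10.94 ± 0.18 (edgeR adjusted p = 1.35e-21). Col1a2 was at 0.472, 0.335 and 0.302 CPM in A2 EPL and 686, 637 and 825 CPM in EpiSC, a log2 difference of 10.90 ± 0.16 (adjusted p = 1.6e-22). Col3a1, the type III collagen of skin, vessels and gut, had 0 counts in A2 EPL, 4 in A2 naive and 2 in A2 ground over 3 libraries each, and was at 279, 270.5 and 294 CPM in EpiSC. It was at least 4821-fold higher than in EPL, taking 3 counts over the group as the floor. Its ratio to ground was 8107, with a 95% counting interval of 2244 to 66950. Intervals and floors of this kind cover counting error only.

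The 250 bases before the RefSeq start of Col3a1 and 232 bases upstream of 1 of the 2 RefSeq starts of Col18a1 are shown because these genes mark the extremes, 1 all but silent before EpiSC and 1 the leading collagen everywhere else. Both read 5′ to 3′ toward the gene. They come from RefSeq on GRCm38.p6, at chr1:45311288-45311537 on the plus strand and chr10:77166549-77166780 on the minus strand, the latter ending 19 bases before the start. Capitals mark matches, on either strand, to the letters CCAAT, to the GC box letters GGGCGG or to the TATA box letters TATAAA.
Col3a1: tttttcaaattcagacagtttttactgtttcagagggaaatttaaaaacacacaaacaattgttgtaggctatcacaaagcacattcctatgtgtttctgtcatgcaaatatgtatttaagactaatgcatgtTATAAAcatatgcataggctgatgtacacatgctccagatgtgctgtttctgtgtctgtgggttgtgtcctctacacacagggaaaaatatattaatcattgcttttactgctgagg
Col18a1: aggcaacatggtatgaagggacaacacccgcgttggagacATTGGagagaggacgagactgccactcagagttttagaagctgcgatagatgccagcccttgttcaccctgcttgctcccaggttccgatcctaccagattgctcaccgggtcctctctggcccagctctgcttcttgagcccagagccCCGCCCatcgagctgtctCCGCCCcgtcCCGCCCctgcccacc
The Col3a1 window held 1 TATAAA, 117 bases before the start, and 0 CpG pairs in its full 300-base window with 37.7% GC. In the Col18a1 window were 3 GGGCGG, at -61, -43 and -33, and 1 CCAAT at -210. RefSeq has another Col18a1 start, with a window at chr10:77113656-77113955 that held 0 of these motifs and 6 CpG pairs, and the counts do not tell which start was used. Over 38 windows of 35 members, 60.5% held GGGCGG, 34.2% CCAAT and 13.2% TATAAA, where a window runs from 250 bases before to 50 after a start. Among all 32851 windows in the table the shares were 35.7%, 37.4% and 13.6%. A match to these letters is a description of the window and shows no bound factor. The 9 members with windows that reached 1 CPM in both ground groups had a median of 18 CpG pairs, and the other 26 a median of 10.5. Each member was taken there at its window with the most CpG pairs. Over single windows the median was 11.5 for collagen windows and 7 for all windows.

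Beyond type I and III, the type V chains rose together in EpiSC. Col5a1 was at 9.97, 8.32 and 10.8 CPM in A2 EPL and at 212, 199.8 and 288 CPM in EpiSC, a log2 difference of 4.59 ± 0.15 (edgeR adjusted p = 1.29e-16). Col5a2 rose from 0.944, 1.17 and 1.15 CPM to 176, 155 and 272 CPM, by 7.52 ± 0.25 (adjusted p = 1.79e-16). Col5a3 rose by 2.86 and Col2a1 by 2.87 on the log2 scale. Col11a1 was the exception among fibrillar genes when ground was the reference. It was at 8.77, 8.44 and 9.91 CPM in EpiSC and 9.36, 7.68 and 8.04 CPM in A2 ground, groups that overlapped, with a log2 difference of 0.11 ± 0.17 (edgeR adjusted p = 0.571). From A2 EPL, at 2.36, 2.23 and 1.81 CPM, it rose by 2.08 ± 0.21 (adjusted p = 8.43e-09).

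Type IV rose as well. Col4a1 was at 606, 539.8 and 715 CPM in EpiSC, all above the 21.7 to 50.6 CPM of A2 EPL, and rose by 4.09 ± 0.22 (edgeR adjusted p = 3.54e-13). Col4a2 rose by 4.74 ± 0.26 and Col4a5 by 6.03 ± 0.25 on the log2 scale. Col18a1, by contrast, differed little: it was at 678, 627 and 778 CPM in EpiSC, 557, 623 and 594 CPM in A2 EPL and 692, 603 and 634 CPM in A2 naive. The log2 difference from EPL was 0.23 ± 0.08 (edgeR adjusted p = 0.0177), and it was 0.19 (adjusted p = 0.0779) without A2 EPL replicate 1 and 0.13 (adjusted p = 0.182) without EpiSC replicate 3. With A2 EPL and EpiSC alone in the fit it was 0.19 (edgeR adjusted p = 0.0984). From naive the difference was 0.11 ± 0.08 (adjusted p = 0.243). The basement membrane rise in EpiSC was thus mostly one of type IV, while the ground to naive rise in CPM lay mostly in Col18a1.

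Among other types, the epithelial anchoring collagen Col7a1 went from 2.07, 2.23 and 2.96 CPM in A2 EPL to 139, 111 and 205 CPM in EpiSC, a log2 difference of 5.97 ± 0.23 (edgeR adjusted p = 2.11e-15). Large rises were also seen in the type VI chains Col6a1, Col6a2 and Col6a3, at 8.13, 5.65 and 9.13, and in the fibril-associated Col16a1, at 7.54 on the log2 scale. Another of that kind, Col12a1, was at 0.214 CPM in A2 EPL and 56.5 CPM in EpiSC. In EpiSC these reached 67.3, 31.6 and 47.2 CPM for Col6a1, Col6a2 and Col6a3 and 62.8 CPM for Col16a1. Smaller rises left the fibrillar Col27a1 at 8.47 CPM, the fibril-associated Col22a1 at 8.39, Col13a1 at 7.43, Col8a2 at 7.49 and Col6a5 at 14.1 CPM, with log2 differences from EPL of 2.34, 2.17, 2.35, 2.50 and 2.12. Col6a1 had 0 counts in A2 ground and was at least 1296-fold higher in EpiSC. Col8a1, a short chain collagen of vessel walls and the cornea, had 0 counts in A2 EPL and was at least 740.6-fold higher in EpiSC, at 43.3 CPM. Col9a2, Col9a3 and Col26a1 were not called against EPL, at 0.20 (edgeR adjusted p = 0.357), 0.32 (adjusted p = 0.13) and 0.69 (adjusted p = 0.0694). Col6a4 was at 5.88, 6.53 and 10.4 CPM in EpiSC, which overlapped the 7.11 to 8.53 CPM of A2 naive, and its log2 difference from naive was -0.05 (edgeR adjusted p = 0.845).

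Fibroblast markers moved with the fibrillar collagens in EpiSC. Their sum over 14 genes was 498.5 to 669 CPM there, and 7 of the 7 that passed the count minimum without EpiSC rose against EPL. The 6 other tested ones, Dcn, Fap, Lum, Postn, Prrx1 and Twist2, passed it only through EpiSC. In EpiSC, 12 of 14 were at 1 CPM or more against 6 in each other group. Mmp2, which is also in the list of collagen degrading enzymes, was at 190.0 CPM, Fbn1 at 121, Prrx1 at 50.2, Postn at 30.2, Dcn at 23.2 and Lum at 6.37 CPM, while Dpt was at 0.432 CPM. The 11 endoderm markers summed to 223 to 324 CPM and all rose against EPL, of which Thbd passed the count minimum only through EpiSC. Of all genes that passed it without EpiSC, 36.0% rose against EPL. The part of either cell type in the EpiSC collagen levels was not tested.

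Genes that make and handle collagen were counted in 4 lists. Of 31 tested genes of collagen synthesis and processing, 12 were higher and 9 lower in naive than in ground, and 11 and 11 in EPL against ground. These shares lie near those of all tested genes, 31.7% higher and 31.8% lower in naive and 33.1% and 33.2% in EPL. In EpiSC against EPL, 23 were higher and 1 lower of the 28 that passed the count minimum without EpiSC. Of the 15589 genes that passed it so, 5619 (36.0%) were higher and 5191 lower, and of all tested genes 39.1% and 31.3%. Lox, Loxl4 and P4ha3 passed it only through EpiSC. Serpinh1, the collagen chaperone HSP47, was at 14.9, 19.0 and 17.6 CPM in A2 EPL and 619, 561 and 745 CPM in EpiSC, a log2 difference of 5.22 ± 0.11. Lox, which crosslinks fibrils, had 0 counts in both ground groups and 9 in A2 EPL, and was at 132, 123 and 143 CPM in EpiSC, a log2 difference from EPL of 9.51 ± 0.22. P4hb, the disulfide isomerase that is also a subunit of prolyl hydroxylase, differed by only 0.19. Before EpiSC the list was mixed: in naive against ground Loxl2 rose by 3.85 and the procollagen protease Adamts14 by 3.61, while Loxl3 fell by 1.70 and the collagen glycosyltransferase Colgalt1 fell by 1.01.

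The 11 non-collagen partners in basement membranes moved mostly the other way from type IV and XVIII collagen between ground and naive. There 2 were higher and 7 lower, with a median log2 difference of -0.50, and in EPL against ground 2 were higher and 9 lower, with a median of -0.68. The shares of all tested genes given above for these comparisons apply to this list and the next ones. Those that rose in naive were Lamb1, a laminin chain, by 1.95 and Pxdn, the peroxidase that crosslinks type IV collagen, by 2.72. Nid1, which links laminin to type IV collagen, fell by 1.52 and the laminin chain Lamb2 fell by 1.28. In EpiSC against EPL 7 of 11 were higher and 1 lower, with a median of 0.96. Of 8 tested collagen receptors, 4 were higher and 1 lower in naive, and the same numbers in EPL. In EpiSC against EPL, 5 were higher and 0 lower of the 6 that passed the minimum without EpiSC, with Itga11 and Itga2 left out. The 2 discoidin domain receptors differed in direction in naive against ground, with Ddr1 up by 1.48 and Ddr2 at -2.92. Of 10 tested degrading enzymes and their inhibitors, 5 were higher and 3 lower in naive, and 5 and 2 in EPL. In EpiSC against EPL, 8 were higher and 0 lower of the 8 that passed the minimum without EpiSC, with Ctsk and Mmp13 left out, and Timp2 rose by 6.96.

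Chains that assemble together were compared per kb. Col1a1 to Col1a2 was 1.55 ± 0.00849 (SD, n = 3) in EpiSC by longest transcript and 3.26 by exon union, so its absolute value depends on the gene model. Type I collagen is mostly made of a pair of the former chain and 1 of the latter. Col4a1 to Col4a2 was 1.56 ± 0.0508 in EpiSC and 1.63 in A2 ground, and 2.37 to 2.65 in the other 5 groups. These genes start head to head on chromosome 8, Col4a1 at chr8:11198423-11312826 on the minus strand and Col4a2 at chr8:11312805-11449287 on the plus strand, with 22 bases shared at their starts. Col5a1 to Col5a2 was 0.933 ± 0.0912 in EpiSC by longest transcript and 1.34 by exon union, so that which chain was higher there depends on the gene model. By longest transcript it was 13.8 in A2 naive and 22.9 in D3 naive, where Col5a2 was at its lowest. Col3a1 and Col5a2 are neighbours too, 24614 bases apart on chromosome 1. Outside EpiSC, Col3a1 had at most 5 counts per group, while Col5a2 had 27 to 222.

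D3 and A2 differed in fewer collagens. Over the ground, naive and EPL stages, 5 of 37 were higher in D3, 5 lower and 27 not called, with 40.7% of all tested genes called, 20% higher and 20.7% lower. Col18a1 was lower in D3 by a log2 difference of -0.37 ± 0.05 (edgeR adjusted p = 1.7e-06), and it was called in each stage, at -0.54 in ground, -0.23 in naive and -0.36 in EPL. Also lower in D3 were Col6a4, at -1.15 ± 0.20 (edgeR adjusted p = 8.33e-05), and Col6a5, at -0.70 ± 0.19 (adjusted p = 0.00423). Col11a1 was higher in D3 by 0.63 ± 0.12 (edgeR adjusted p = 0.000252), with 17.0, 17.8 and 12.8 CPM in D3 ground above the 9.36, 7.68 and 8.04 CPM of A2 ground. Col8a2, a chain of the corneal endothelium's basement layer, was higher by 2.41 ± 0.44 (adjusted p = 0.000149) and had 0 counts in A2 ground, against 9 in D3 ground. The size of this average thus depends in part on how the fit treats 0 counts. At the floor of 3 counts, D3 ground was at least 2.905-fold above A2 ground. Per kb, D3 and A2 were at 0.528 and 0.140 CPM in naive, and at 0.497 and 0.305 CPM in EPL. Col4a1 was higher by 0.39 ± 0.13 (edgeR adjusted p = 0.0196). Col2a1 and Col5a3 had edgeR adjusted p of 0.0388 and 0.0478, calls that were lost in 9 and 13 of the 18 fits leaving out 1 library, with adjusted p up to 0.0936 and 0.172. For Col2a1 these left out A2 EPL replicate 1 or 3, A2 ground or naive replicate 2 or 3, or replicate 1 of D3 EPL, ground or naive. For Col5a3 the call held without A2 ground replicate 1, A2 naive replicate 3, D3 EPL replicate 2, D3 ground replicate 3 or D3 naive replicate 2, and was lost without any of the rest.

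Whether the lines took the steps alike was tested by the difference between their differences, D3 minus A2. For ground to naive, 5 of 37 collagens had an unadjusted edgeR p below 0.05, as did 14.9% of all tested genes. After adjustment, edgeR called 0 of 37 collagens and DESeq2 called 0, while edgeR called 3.06% of all genes, 1.51% higher and 1.56% lower. For ground to EPL it called 3 of 37 higher and 2 lower, with 13.3% of all genes called, 7.25% higher and 6.06% lower. Col1a1 was at 2.79, 1.99 and 1.85 CPM in A2 ground and 0.354, 0.781 and 0.724 in A2 EPL, which did not overlap. In D3 it was at 1.32, 1.58 and 1.31 CPM in ground and 1.75, 1.72 and 1.16 in EPL, which did. The fitted difference was -1.83 ± 0.29 in A2 (edgeR adjusted p = 1.23e-05) and 0.10 ± 0.25 in D3 (adjusted p = 0.772), and these differed by 1.93 ± 0.39 (adjusted p = 0.00183).

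Col4a2 rose by 1.32 in A2 and 2.91 in D3, a difference of 1.59 ± 0.42 (edgeR adjusted p = 0.0124), and Col4a1 by 1.91 and 2.89, a difference of 0.97 ± 0.33 that was not called (adjusted p = 0.0517). Among the marker lists, the mean sums of endoderm, neural and fibroblast genes were higher in D3 EPL than in A2 EPL. Those of trophoblast, mesoderm, endothelial and pluripotent cell genes were lower. A link of any of these lists to the collagen differences between lines was not tested. Col9a2 went the other way, at 9.15, 6.86 and 8.75 CPM in A2 EPL and 3.5, 4.58 and 4.88 CPM in D3 EPL. It rose by 1.87 in A2, was not called in D3 at 0.49 (edgeR adjusted p = 0.0646), and the lines differed by -1.38 ± 0.32 (adjusted p = 0.00505). Col5a3 rose by 2.71 in A2 and 1.34 in D3, a difference of -1.37 ± 0.35 (edgeR adjusted p = 0.0109) that was lost without D3 ground replicate 1 (adjusted p = 0.0587).

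Col5a2 differed between lines after its fall. It was at 0.944, 1.17 and 1.15 CPM in A2 EPL, below every A2 ground library, and at 2.92, 4.2 and 3.38 CPM in D3 EPL, within the 2.63 to 4.86 CPM of D3 ground. From naive to EPL it rose by 2.79 ± 0.40 in D3 (edgeR adjusted p = 6.39e-06) and was not called in A2, at 0.52 (adjusted p = 0.414). The difference of 2.26 ± 0.64 (edgeR adjusted p = 0.0221) belongs to a comparison of the naive to EPL step between lines that was added after the data were seen, in which 3 of 37 collagens were called, all higher. Of all genes 12.7% were called, 6.78% higher and 5.93% lower. That call was lost without A2 naive replicate 3 or D3 naive replicate 2 or 3, with adjusted p up to 0.0786. Against ground the lines differed in Col5a2 by 1.37 ± 0.44 (adjusted p = 0.0408), which was lost in 10 of 12 fits leaving out 1 library, with adjusted p up to 0.11. It held without D3 EPL replicate 1 or D3 ground replicate 1.

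**Figure D5:**
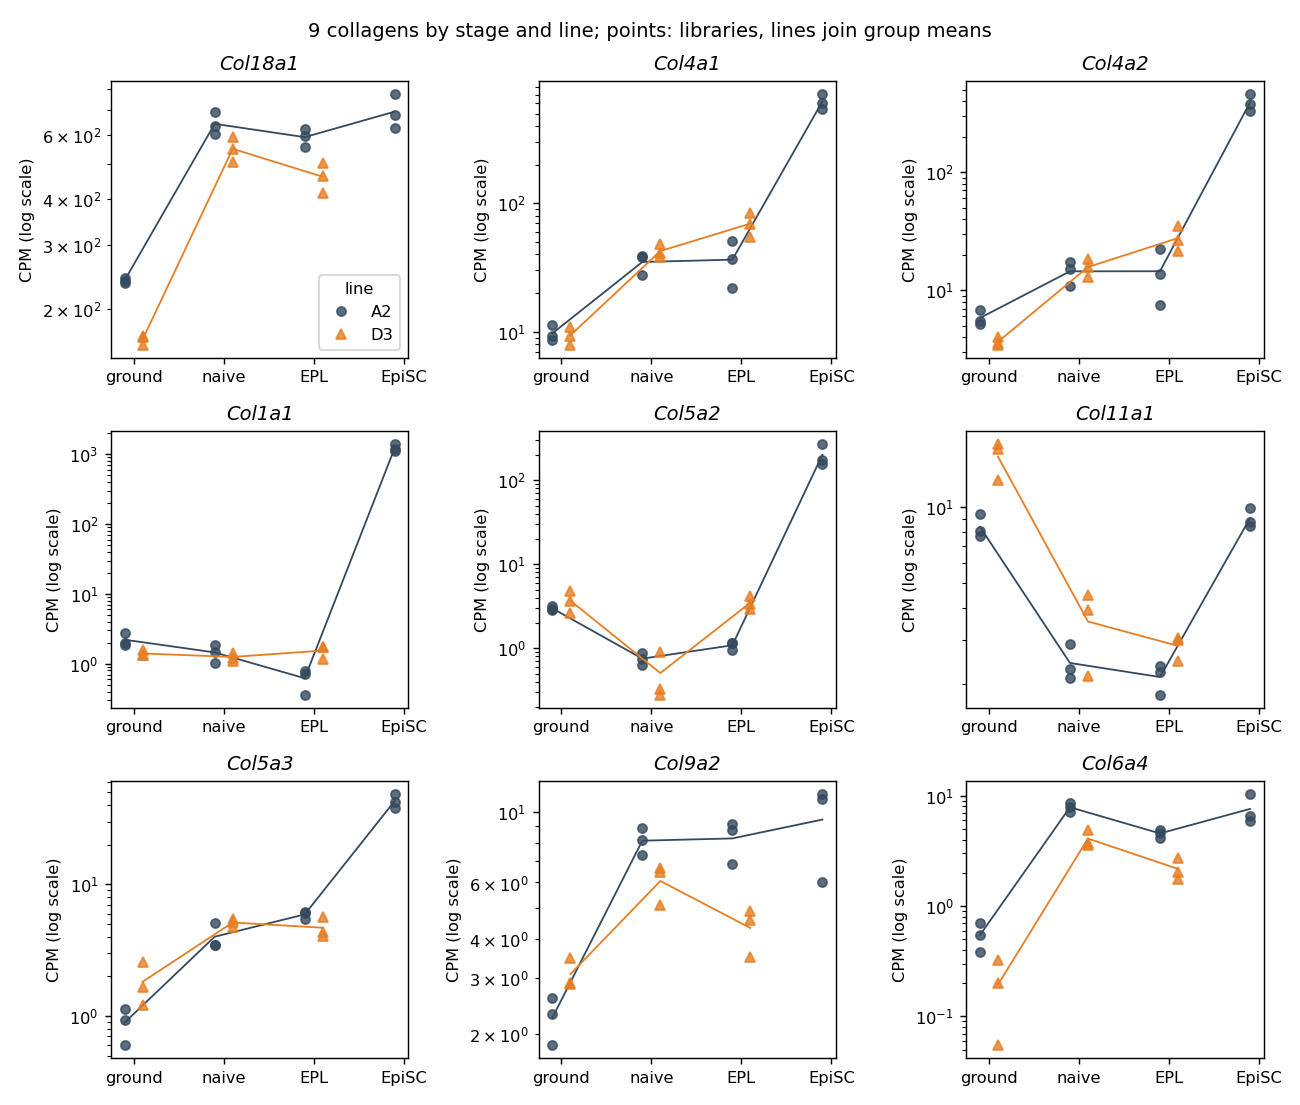
Level of 9 collagen genes (CPM, logarithmic axis) by stage, with circles for A2 and triangles for D3 libraries and EpiSC in A2 alone. Col5a2 in EPL is at 0.944 to 1.17 CPM in A2 and 2.92 to 4.2 CPM in D3, and Col9a2 in EPL is at 6.86 to 9.15 CPM in A2 and 3.5 to 4.88 CPM in D3.

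The library kit does not mark the strand, so overlapping exons matter for some members. Col4a1 and Col4a2 share 22 bases on opposite strands, which is little of either. Col9a3 shares 234 bases with Tcfl5 on the other strand, a gene with 13697 counts in all against 1141 for Col9a3, so its values are uncertain. Col20a1 shares 79 bases with a predicted gene on the same strand that had 980 counts against 396. Both low members changed in some comparisons: Col9a3 was called in naive against ground, at 0.58 (edgeR adjusted p = 0.00231), and Col20a1 in EPL against ground, at -1.98 ± 0.26 (adjusted p = 5.18e-07).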

How the data were processed

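RNA was sequenced from 21 libraries, made with an Illumina TruSeq RNA v2 kit per the labels' protocols, a chemistry without strand information. The authors deposited raw counts per Ensembl gene. Tools named in the submitters' processing notes are HISAT2, SAMtools and featureCounts, with the build GRCm38; versions: not given in the sources used here. Totals ran from 15320599 to 23490527 counts per library, and every library was used.

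Genes were kept by filterByExpr (minimum count 10, minimum total 15), scaled by TMM and fitted in 1 edgeR 4.0.16 quasi-likelihood model (R 4.3.3) with 7 group means and no pairing. The sources describe samples as paired but do not say how they were paired, and the replicate block below takes the replicate number alone. P-values were adjusted by Benjamini-Hochberg over 16575 genes and called below 0.05. Each SE was derived from the F statistic and the fitted value. Naive and EPL comparisons average A2 and D3, and EpiSC comparisons use A2. Folds against 0 counts use a floor of 3 counts over the group, and ratios with 1 to 3 counts carry a 95% Poisson interval. Levels per kb use the longest GENCODE M21 transcript. Promoter windows are from RefSeq. The model was tested on simulated counts.

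The members, lists, markers and comparisons were chosen with earlier results of these data known. Members with a group mean of at least 5 CPM, and any called in a comparison of steps between lines, are named. Alternatives were RLE and total count scaling, DESeq2 1.42.0, no filter and a stricter filter, only the groups compared, a replicate block, and leaving out each library. Counts of calls within each line were read from contrasts of the main model of all libraries and not from separate fits.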

Additional observations from a re-analysis of the deposited data

Results flagged for a closer look

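The step from ground to EPL differed between the lines in 5 collagen genes by a test of the difference itself, D3 minus A2 on the log2 scale: Col1a1 (1.93), Col4a2 (1.59), Col5a2 (1.37), Col5a3 (-1.37) and Col9a2 (-1.38). These are 5 of 37 tested collagens, where 13.3% of all tested genes were called, so the share is near that of all genes. For the step from naive to EPL, compared between lines after the data were seen, the genes were Col1a1 (1.5), Col1a2 (1.62) and Col5a2 (2.26). Col1a2 was at 0.461, 0.588 and 0.585 CPM in A2 naive, 0.472, 0.335 and 0.302 in A2 EPL, 0.229, 0.443 and 0.221 in D3 naive and 0.778, 0.592 and 0.556 in D3 EPL, and its edgeR adjusted p of 0.044 rose above the threshold in 10 of 12 fits leaving out 1 library (up to 0.106), but not without A2 EPL replicate 1 or D3 naive replicate 2. For Col1a1 the edgeR adjusted p of 0.0186 rose to as much as 0.0738 without A2 EPL replicate 1, A2 naive replicate 3 or D3 EPL replicate 2.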

How the results depend on the processing

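Of 7551 gene values recomputed under other settings, 0 called values changed direction, 199 lost and 114 gained the call. The number of collagens called was 21 in naive against ground (15 to 23 under other settings, 21 to 24 leaving out 1 library), 24 in EPL against ground (21 to 26, 22 to 25), 14 in EPL against naive (13 to 17, 11 to 16), 34 in EpiSC against EPL (33 to 38, 33 to 34), 34 against ground (33 to 37, 33 to 35) and 31 against naive (30 to 36, 31 to 32), and 10 in D3 against A2 (9 to 14, 8 to 11). Within A2 and within D3, read from the same model, it was 21 and 16 for naive against ground. For EPL it was 19 and 22 against ground, and 8 and 17 against naive. Of the 16575 tested genes, 4157 were higher and 4289 lower in naive against ground in A2, and 4360 and 4525 in D3. In EPL against ground these were 4505 and 4580 in A2, and 4881 and 4706 in D3. In EPL against naive, 32.8% were called in A2 and 44.9% in D3. For the line differences the number of collagens called was 0 for the naive step, with 2 without the filter on low counts, 1 with only the groups compared and 0 leaving out 1 library. It was 5 for the EPL step (5 to 7, 4 to 5), and 3 for the added naive to EPL step, with 6 without the filter and 1 to 4 leaving out 1 library (1 without A2 naive replicate 3, D3 EPL replicate 2 or D3 naive replicate 3). Scaling to total counts moved the median log2 difference of all genes in EpiSC to 0.272, 0.304 and 0.262 against EPL, ground and naive, from 0.067, 0.042 and 0.079.

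Taken as a set, libraries with the same number did not deviate together (median correlation -0.0189 over 63 pairs, 5 of 21 libraries closest to their own number). Single pairs did: 8 of the 63 were above 0.1, as were 24 of 126 pairs with unlike numbers. The highest, 0.363, was that of replicate 2 of A2 naive and D3 naive. A replicate block gave 21, 24, 13, 34, 34, 31 and 10 calls in the same comparisons. Members with few counts, such as Col6a2 and Col4a5 in ground, are limited by depth.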
